A study of Mus musculus with 16 samples.

Results

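The genes described here are 10 genes of macrophages in mouse tumours, namely Adgre1, Csf1r, Cd68, Lyz2, Itgam, Msr1, Ccr2 and the complement genes C1qa, C1qb and C1qc. They were taken by their symbols, and all 10 were found among the 18480 entries measured in each library. The tumours were subcutaneous grafts of MC38, an established line of mouse colon carcinoma cells. The 16 libraries fall into 4 groups of 4: exercise with anti-PDL1, called the combination here, anti-PDL1 alone, exercise alone, and control. The antibody blocks PD-L1, a ligand that restrains T cells. Mouse strain, sex and age, antibody dose, type and length of exercise and any control antibody are not given in the labels, so the groups are known only by these names. Whether each library is a mouse of its own is not stated either. The p-values given here therefore reflect the spread among the libraries alone, and that spread may be technical.

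Macrophages in tumours arise largely from blood monocytes that enter the tissue through the chemokine receptor Ccr2. Their survival depends on the growth factor receptor Csf1r, which binds Csf1 and Il34. C1q, the recognition unit of the classical complement pathway, is built from the 3 chains encoded by C1qa, C1qb and C1qc. Unlike most complement proteins, which the liver makes, C1q is made mainly by macrophages and related cells, and tumour macrophages are a known source of it. Of the other genes, Adgre1 encodes the surface antigen F4/80, Cd68 a glycoprotein of lysosomes, Lyz2 the antibacterial enzyme lysozyme, Itgam the integrin chain CD11b, and Msr1 a scavenger receptor for modified lipoproteins. Cd68, Lyz2 and Itgam are also expressed by monocytes and other myeloid cells.

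Expression is given as FPKM, a fragment count divided by transcript length and by the size of the library, so levels of different genes can be set side by side per length. The read depth behind the values is unknown. Controls 1 and 2 stand apart from the other 14 libraries. Lyve1 and Folr2, genes of resident tissue macrophages, measured 21.5 and 23.6 FPKM in control 1 and 49.4 and 59.1 FPKM in control 2. In the other libraries Lyve1 did not exceed 1.55 FPKM and Folr2 did not exceed 9.46 FPKM. Control 2 also held the skeletal muscle transcript Acta1 at 169.9 FPKM. Of 3 listed adipocyte genes, Fabp4 measured 121.5 FPKM there, but Adipoq and Plin1 only 0.41 and 0.03 FPKM. The 10 genes together summed to 1490 FPKM in control 1 and 1902 FPKM in control 2, above the range of 362.3 to 1255 FPKM in the other libraries. For the 10 genes, each comparison with control is therefore given with and without these 2 libraries. For the other genes, fold changes against control are given with all control libraries only. The part of such tissue in the results was not tested. Anti-PDL1 library 4 stood apart in another way. There 5 red cell genes summed to 4071 FPKM, while in the other libraries they summed to at most 792 FPKM. This library also held the highest Cd68 value of its group, at 109.4 FPKM. The part of blood in the results was not tested either. Among 10 neutrophil genes, Ly6g, Camp and Ngp stayed under 1 FPKM in all 16 libraries, and Mmp8 was the 1 that passed the test in any comparison, higher in anti-PDL1 than in exercise tumours and in tumours with than without the antibody. The 10 summed to between 14.6 and 33.5 FPKM in combination, 16.9 and 42.5 in anti-PDL1, 20.5 and 58.4 in exercise and 21.2 and 86.6 in control libraries. The highest sums in control and exercise were mostly Mmp9, at 73.7 FPKM in control 1 and 52.5 FPKM in exercise 2. The part of these neutrophil genes in the results was not tested. Of 5 epithelial genes, Epcam, Krt8 and Krt18 reached at most 0.2 FPKM in any library, while Cdh1 ranged from 1.24 to 3.05 FPKM and Krt19 from 0.04 to 4.87 FPKM, highest in control 2.

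The 3 C1q genes lie side by side on chromosome 4, between 136880126 and 136898844 in the build GRCm38.p6, and span 18.7 kb. Cd68 lies on chromosome 11 between 69664213 and 69666170. Promoter windows of RefSeq, which run from 250 bases before to 50 bases after an annotated start in GRCm38.p6, matched 6 of the 10 genes: Cd68, Lyz2, Itgam, Ccr2, C1qb and C1qc. The start used lies inside the span of the gene for Ccr2, whose window holds no base upstream of that span, and slightly inside it for C1qc. The windows of C1qb and C1qc are shown because these genes varied almost as one across the libraries, and that of Cd68 because it tracked them least closely among the abundant genes. They are the minus-strand sequences of chr4:136886151-136886450 for C1qb, chr4:136892865-136893164 for C1qc and chr11:69666121-69666420 for Cd68, written 5′ to 3′. Capitals mark a match to a searched motif.
C1qb: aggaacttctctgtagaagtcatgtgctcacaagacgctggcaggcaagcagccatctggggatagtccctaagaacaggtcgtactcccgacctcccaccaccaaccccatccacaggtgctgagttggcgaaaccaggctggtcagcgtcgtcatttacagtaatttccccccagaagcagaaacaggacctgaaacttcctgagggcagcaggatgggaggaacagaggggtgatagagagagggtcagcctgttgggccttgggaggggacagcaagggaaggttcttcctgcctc
C1qc: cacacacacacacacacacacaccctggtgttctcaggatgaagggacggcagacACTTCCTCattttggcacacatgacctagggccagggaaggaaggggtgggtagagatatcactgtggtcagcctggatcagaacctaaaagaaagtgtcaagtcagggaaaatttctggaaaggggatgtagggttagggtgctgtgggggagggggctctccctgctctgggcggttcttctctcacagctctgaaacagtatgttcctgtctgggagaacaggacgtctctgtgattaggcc
Cd68: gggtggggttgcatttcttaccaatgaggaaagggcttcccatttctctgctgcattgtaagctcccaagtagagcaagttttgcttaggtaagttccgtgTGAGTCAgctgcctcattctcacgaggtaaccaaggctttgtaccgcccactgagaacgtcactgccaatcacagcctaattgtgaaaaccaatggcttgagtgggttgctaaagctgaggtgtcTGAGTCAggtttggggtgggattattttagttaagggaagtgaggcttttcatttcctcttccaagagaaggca
The windows were searched on both strands for GAGGAAGT (bound by PU.1), TGCTGAC (part of a MAF site), TGACTCA (AP-1) and the interferon-stimulated response element. The C1qc window held GAGGAAGT on the strand opposite to the gene at -195, counted from the start used for the window. In the Cd68 window TGACTCA stood on the opposite strand at -149 and at -24. The C1qb, Lyz2, Itgam and Ccr2 windows held no match. Of all 32851 windows of this length, 3.2% held GAGGAAGT, 4.67% TGCTGAC, 5.2% TGACTCA and 3.44% the interferon-stimulated response element, and a match is only a description of these letters.

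The 10 genes differed widely in level and kept much of their order from tumour to tumour. Lyz2 was the highest of them in 16 of 16 libraries, with a mean of 372 FPKM over all libraries and a range of 194 to 825 FPKM. C1qa came second in 13 libraries, and the C1q genes kept the order C1qa, C1qb, C1qc in 16 of 16. Over all libraries C1qa averaged 128 FPKM, C1qb 109.9 FPKM and C1qc 89.8 FPKM. The ratio of C1qa to C1qb stayed between 1.07 and 1.26 and that of C1qc to C1qb between 0.754 and 0.906, while C1qa itself spanned 36.2 to 337 FPKM. Cd68 followed with a mean of 65.5 FPKM. Csf1r, Itgam and Msr1 averaged 20.7, 17.8 and 11.3 FPKM. Csf1r lay above Itgam in 9 of 16 libraries but in 0 of the 4 anti-PDL1 libraries. At the low end, Adgre1 averaged 6.76 FPKM and Ccr2 5.0 FPKM. Ccr2 was lowest in 13 libraries and Adgre1 in 3. Neighbours in this order overlapped in range over the libraries. All 10 genes reached 1 FPKM in all 16 libraries, so all passed the filter on low values. Together they held between 0.0724% and 0.385% of the FPKM sum of a library. In whole tumours, fewer macrophages and less of a transcript per macrophage cannot be told apart.

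**Figure D1:**
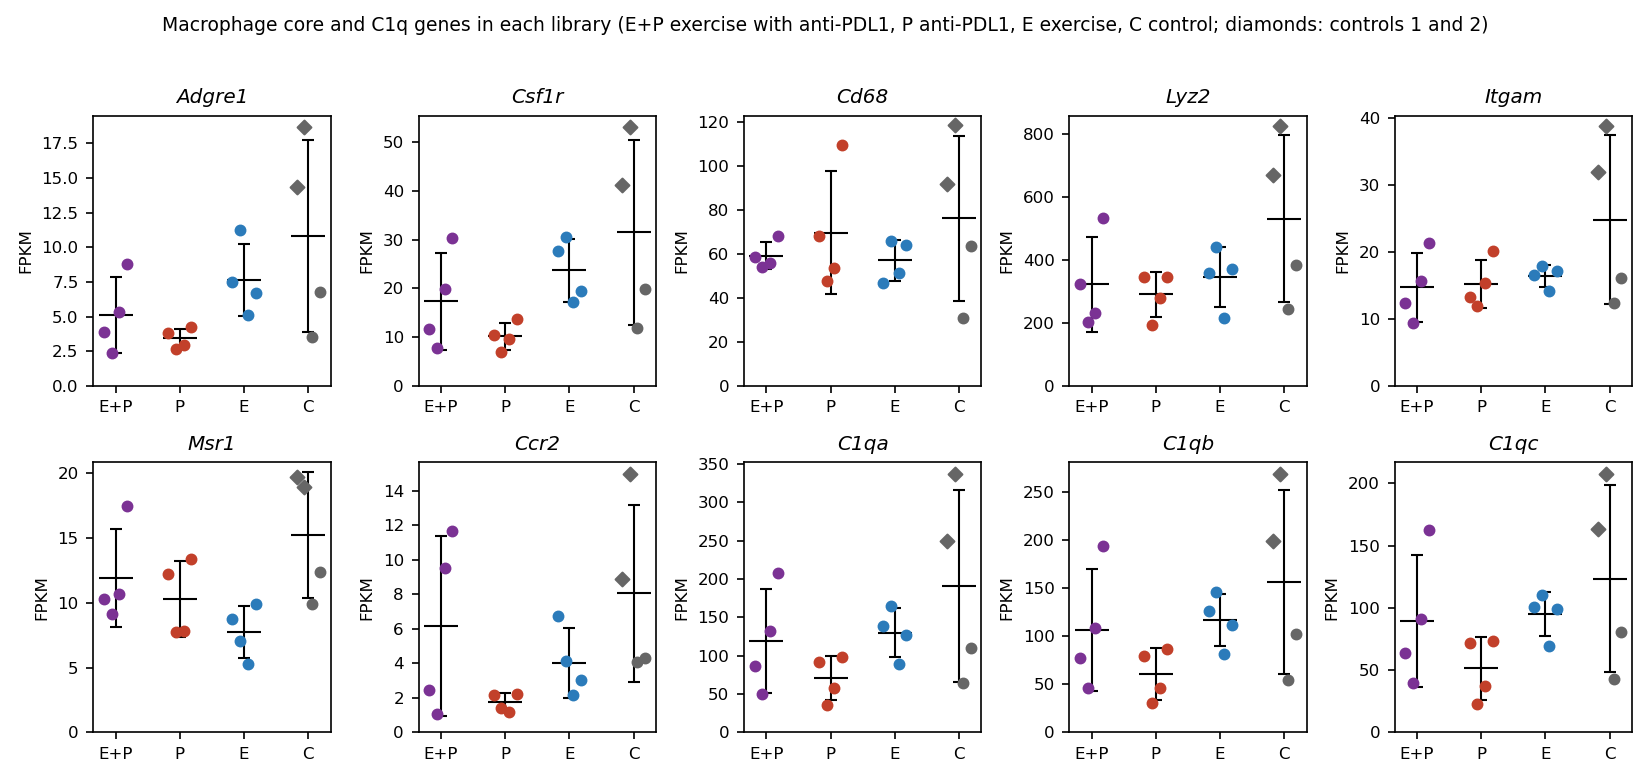
Level of each of the 10 genes in FPKM (y axis) by group, with 1 point per library and bars for the mean ± SD of 4 libraries; diamonds are controls 1 and 2. The diamonds lie at the top of most panels, and the 4 anti-PDL1 libraries cluster at the low end for Adgre1, Csf1r and Ccr2 but not for Cd68.

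The comparison of anti-PDL1 with control asks what the antibody alone did. All 10 genes had a lower fitted level with anti-PDL1, where 57.7% of all genes tested did, most of all the receptors Ccr2, Csf1r and Adgre1 and the C1q genes, while Cd68 differed little. None passed the threshold of an adjusted p under 0.05 in limma (0 of 10, where 0.253% of the 11868 genes tested passed). At an unadjusted p under 0.05 there were 6 of 10, all lower, against 15.7% of all genes in that direction and 23.5% in either. The median log2 fold change of the 10 genes was -1.18, and that of all genes tested was -0.04.

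Csf1r, the growth factor receptor, measured 10.5, 6.85, 9.65 and 13.7 FPKM in anti-PDL1 tumours, against 41.2, 53.2, 11.8 and 19.98 FPKM in control tumours. The anti-PDL1 libraries were all low, and only the highest of them reached into the range of control. The log2 fold change was -1.36 ± 0.44 (SE; adjusted p = 0.108 in limma). Adgre1, which encodes F4/80, measured 3.81, 2.68, 2.97 and 4.21 FPKM in anti-PDL1 tumours, against 14.4, 18.7, 3.52 and 6.79 FPKM in control tumours. Here too the groups overlapped through control 3 alone, and the log2 fold change was -1.22 ± 0.41 (SE; adjusted p = 0.115 in limma). Ccr2, the monocyte chemokine receptor, measured 2.19, 1.40, 1.20 and 2.25 FPKM in anti-PDL1 tumours, against 8.89, 14.9, 4.07 and 4.29 FPKM in control tumours. It was the 1 gene of the 10 whose groups did not overlap, and 7.26% of all genes tested were lower without overlap in this comparison. Its log2 fold change was -1.57 ± 0.53 (SE; adjusted p = 0.116 in limma).

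C1qa measured 91.6, 36.2, 58.0 and 97.9 FPKM in anti-PDL1 tumours, against 249.6, 337, 65.1 and 110.4 FPKM in control tumours. C1qb measured 79.3, 30.5, 46.0 and 86.5 FPKM in anti-PDL1 tumours, against 199 FPKM in control 1, 269 in control 2, 54.9 in control 3 and 103 in control 4. C1qc measured 71.8, 23.1, 37.4 and 73.6 FPKM in anti-PDL1 tumours, against 163, 208, 42.8 and 80.3 FPKM in control tumours. For all 3 chains control 3 lay within the anti-PDL1 range, and controls 1 and 2 lay far above it. Their log2 fold changes were -1.24 ± 0.51 for C1qa, -1.23 ± 0.50 for C1qb and -1.15 ± 0.51 for C1qc (SE), with adjusted p-values in limma of 0.166, 0.163 and 0.190.

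The remaining genes, of lysosome, granule, adhesion and scavenging, showed smaller differences. Cd68 measured 68.1, 47.5, 53.4 and 109.4 FPKM in anti-PDL1 tumours, against 91.8, 118, 30.8 and 63.7 FPKM in control tumours, and the groups overlapped throughout. Its log2 fold change was -0.05 ± 0.33 (SE; 95% confidence interval -0.75 to 0.66). Lyz2 ranged from 194 to 346 FPKM in anti-PDL1 tumours and from 243 to 825 FPKM in control tumours, a log2 fold change of -0.75 ± 0.38 (SE; adjusted p = 0.248 in limma). Itgam ranged from 11.9 to 20.1 FPKM in anti-PDL1 tumours and from 12.4 to 38.9 FPKM in control tumours, at -0.56 ± 0.31 (SE; adjusted p = 0.278 in limma). Msr1 ranged from 7.75 to 13.4 FPKM in anti-PDL1 tumours and from 9.86 to 19.7 FPKM in control tumours. Its log2 fold change was -0.51 ± 0.25 (SE; adjusted p = 0.236 in limma). Lyz2, Itgam and Msr1 all overlapped between the groups. Lyz1, a near-identical neighbour of Lyz2 with which it may share reads, had a log2 fold change of -0.75 ± 0.40 (SE; adjusted p = 0.266 in limma).

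These differences rested in part on the 2 controls that stand apart. Without controls 1 and 2 the median log2 fold change of the 10 genes was -0.35. Ccr2 then stood at -0.93, Csf1r at -0.59, Adgre1 at -0.44 and C1qa at -0.36, and Cd68 and Itgam changed sign, to 0.56 and 0.070. Libraries were also weighted by how little their genes scattered about the group means, which is no measure of RNA quality. With these weights Adgre1 and Csf1r passed the threshold, at -1.50 and -1.71 (adjusted p = 0.0422 and 0.0343 in limma). That fit called 835 genes in place of 30. Its values for Adgre1 and Csf1r lay further from 0 than the reported ones, as did those without control 3 (-1.61 and -1.74).

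**Figure D2:**
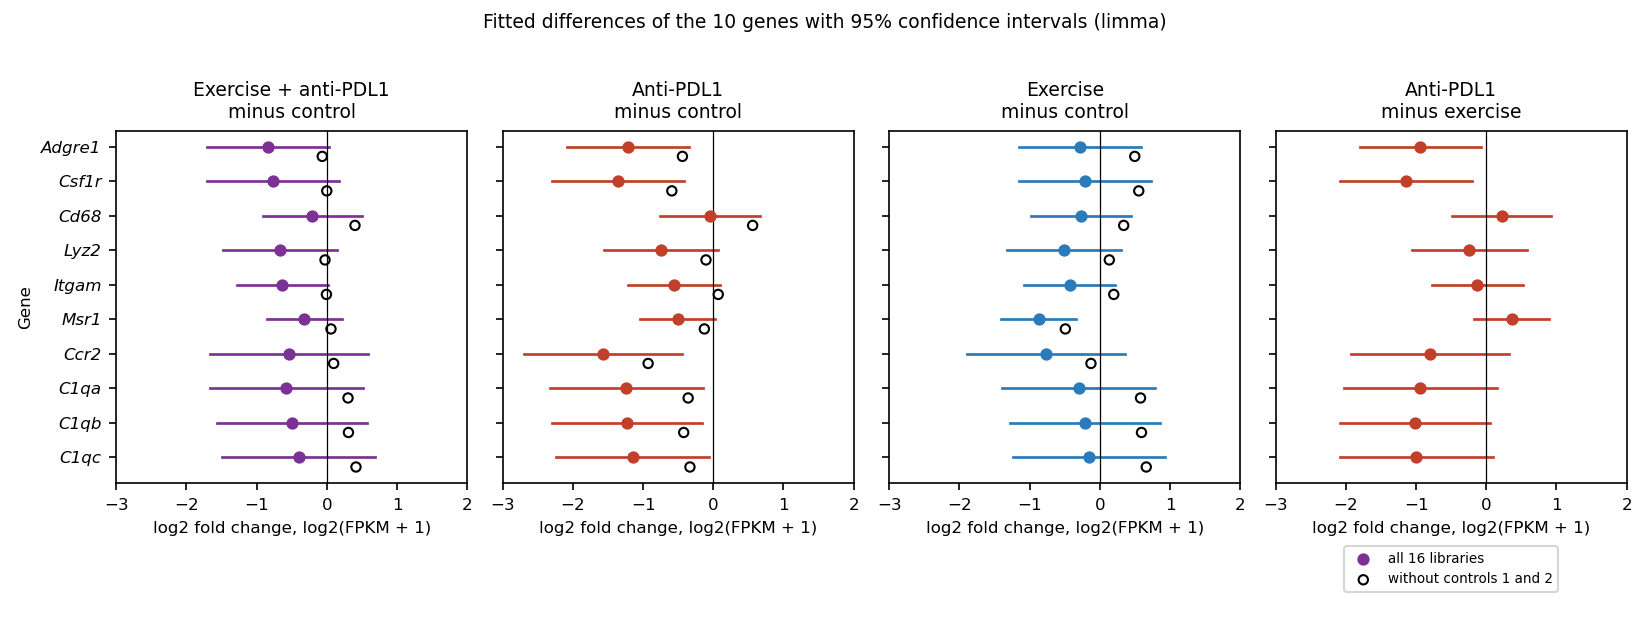
Fitted log2 fold change on log2(FPKM + 1) (x axis) of each gene (y axis), with the 95% confidence interval from limma, for 3 comparisons with control and for anti-PDL1 against exercise; open circles leave out controls 1 and 2. The open circles lie to the right of the filled ones for all 10 genes in the 3 comparisons with control.

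Anti-PDL1 against exercise sets the antibody alone beside exercise alone. Its fold changes do not involve the control libraries, but its standard errors and p-values do, since all 16 libraries were fitted together. Csf1r and Adgre1 were lower with anti-PDL1 with no overlap between the groups, 2 of 10 genes where 8.07% of all genes tested were lower without overlap. None of the 10 passed the adjusted threshold in limma, where 1.58% of all genes did, and these 2 had an unadjusted p under 0.05, against 13.3% of all genes in that direction and 22.8% in either. Csf1r measured 27.8, 30.6, 17.1 and 19.4 FPKM in exercise tumours and Adgre1 measured 7.51, 11.3, 5.14 and 6.69 FPKM there, above every anti-PDL1 value given above. The log2 fold changes were -1.15 ± 0.44 for Csf1r and -0.94 ± 0.41 for Adgre1 (SE; adjusted p = 0.146 and 0.187 in limma). When the 8 libraries of these groups were fitted alone, both passed, at adjusted p = 0.0376 and 0.0489 in limma, beside 210 genes in all.

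C1qa measured 138.8, 165, 89.6 and 128 FPKM in exercise tumours, and the anti-PDL1 values of 91.6 and 97.9 FPKM reached just into that range. The fold change of C1qb was closest to the threshold among the chains, at -1.02 ± 0.50 (SE; adjusted p = 0.238 in limma). Cd68 and Msr1 went the other way, at 0.22 ± 0.33 and 0.36 ± 0.25 (SE; adjusted p = 0.724 and 0.400 in limma). Without anti-PDL1 library 4 the value of Cd68 was -0.020. The median over the 10 genes was -0.87, beside -0.04 for all genes tested.

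The combination against anti-PDL1 asks what exercise added to the antibody. The fitted levels of 8 of the 10 genes lay higher in the combination, while 44.8% of all genes tested lay lower, and the combination libraries spread widely. Csf1r measured 11.6, 7.84, 19.8 and 30.3 FPKM in combination tumours, against 10.5, 6.85, 9.65 and 13.7 FPKM in anti-PDL1 tumours. Ccr2 measured 2.46, 1.04, 9.52 and 11.7 FPKM in combination tumours, against 2.19, 1.40, 1.20 and 2.25 FPKM in anti-PDL1 tumours. C1qa measured 86.6, 50.5, 132 and 208 FPKM in combination tumours, against 91.6, 36.2, 58.0 and 97.9 FPKM in anti-PDL1 tumours. For each of these 3 genes, combination libraries 3 and 4 lay above all 4 anti-PDL1 libraries, while libraries 1 and 2 lay within or near their range.

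The log2 fold change of Ccr2 was 1.03 ± 0.53, that of Csf1r 0.59 ± 0.44 and that of C1qa 0.66 ± 0.51 (SE). The adjusted p was 0.968 for each in limma. Without combination library 4 they were 0.63 for Ccr2, 0.28 for Csf1r and 0.33 for C1qa, and without combination library 2 they were 1.51, 0.89 and 1.01. The median over the 10 genes was 0.48, and 0.20 without library 4 or 0.76 without library 2. None of the 10 genes passed (0% of all genes did), none had an unadjusted p under 0.05 (3.94% of all genes did), and none was free of overlap, where 1.4% of all genes were higher and 0.843% lower without overlap. Cd68 differed least among the combination libraries, at 58.7, 54.0, 55.9 and 68.2 FPKM, a coefficient of variation of 10.6%, against 56.8% for C1qa and 84.5% for Ccr2 in the same tumours. Fibroblast genes also differed among these libraries, and summed to 1477, 333, 750.2 and 1459 FPKM over 7 markers. Leukocyte genes summed to 77.3, 66.8, 115 and 143 FPKM over 4 markers. The part of either in the spread of the 10 genes was not tested.

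The combination against control, which shares the control libraries with the other comparisons to control, gave lower fitted levels for all 10 genes, as for 58.1% of all genes tested. None passed the adjusted threshold in limma (0% of all genes did), and none had an unadjusted p under 0.05, where 8.2% of all genes did. The median log2 fold change was -0.56, beside -0.03 for all genes. The largest was that of Adgre1, which measured 3.91, 2.39, 5.36 and 8.78 FPKM in combination tumours, at -0.84 ± 0.41 (SE; adjusted p = 0.616 in limma). C1qb measured 77.1, 46.4, 108 and 193 FPKM in combination tumours, at -0.50 ± 0.50 (SE; adjusted p = 0.801 in limma). All 10 genes overlapped between the groups, where 1.46% of all genes were higher and 2.37% lower without overlap. Without controls 1 and 2 the median was 0.078, so the direction rested on those 2 libraries.

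Exercise against control showed the largest difference for Msr1, the scavenger receptor. Msr1 measured 8.76, 7.03, 5.27 and 9.91 FPKM in exercise tumours, against 19.7, 18.9, 9.86 and 12.3 FPKM in control tumours. The exercise libraries were lower except that their highest value lay just above control 3. The log2 fold change was -0.87 ± 0.25 (SE; adjusted p = 0.181 in limma). Msr1 was the 1 gene of the 10 with an unadjusted p under 0.05, a mark that 9.93% of all genes tested reached in that direction and 18% in either, and 0% passed the adjusted threshold. Library weights gave -1.10 (adjusted p = 0.0123 in limma) in a fit that called 2274 genes. The other 9 genes lay between -0.77 and -0.15 with adjusted p-values of 0.441 and above in limma, and the median over all 10 was -0.29. So all 10 had a lower fitted level, against 53.8% of all genes, and all 10 overlapped, where 4.21% of all genes were higher and 3.51% lower without overlap. Without controls 1 and 2 the median was 0.42 and 8 of the 10 genes changed sign, with C1qc at 0.66 and Csf1r at 0.56. Msr1 and Ccr2 stayed below 0, at -0.49 and -0.13.

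Combination and exercise tumours differ by the antibody given with exercise. Msr1 measured 10.3, 9.13, 10.7 and 17.4 FPKM in combination tumours, against 8.76, 7.03, 5.27 and 9.91 FPKM in exercise tumours. The groups overlapped through 1 library each. At 0.55 ± 0.25 (SE; adjusted p = 0.354 in limma) it was the 1 gene with an unadjusted p under 0.05, where 6.7% of all genes had one in that direction and 13.6% in either, and 0% passed the adjusted threshold. All 10 genes overlapped, where 3.21% of all genes were higher and 3.73% lower without overlap. The median over the 10 genes was -0.23, and it ranged from -0.52 without combination library 4 to 0.056 without combination library 2.

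The interaction asks whether exercise changed the genes differently with and without the antibody. All 10 genes had a positive interaction, while 45.1% of all genes tested had a negative one, with a median of 0.86 on the log2 scale beside 0.03 for all genes tested, and none passed the adjusted threshold in limma (0% of all genes did). Unadjusted p-values under 0.05 stood for 2 genes, against 7.99% of all genes in that direction and 13.1% in either, namely Ccr2 at 1.79 ± 0.74 and Msr1 at 1.06 ± 0.36 (SE; adjusted p = 0.366 and 0.364 in limma). Without controls 1 and 2 the median was 0.058, 4 genes turned negative, and Msr1 and Ccr2 stood at 0.68 and 1.15.

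With the antibody averaged over tumours with and without exercise, Csf1r stood at -0.96 ± 0.31 and Adgre1 at -0.89 ± 0.29 (SE; adjusted p = 0.105 and 0.104 in limma). None of the 10 genes passed, where 2.41% of all genes did, and 3 (with C1qb) had an unadjusted p under 0.05, where 14% of all genes did in that direction and 22.2% in either. Without control 3, Adgre1 passed at -1.08 (adjusted p = 0.0407 in limma). The C1q genes lay between -0.76 and -0.70, and the median over the 10 genes was -0.69. When controls 1 and 2 were left out, Csf1r stood at -0.57, Adgre1 at -0.50 and the C1q genes between -0.35 and -0.29 (adjusted p = 0.378 and above in limma), with a median of -0.30. With exercise averaged in the same way, the median over the 10 genes was 0.090. It was 0.44 without controls 1 and 2, and ranged from -0.088 without control 3 to 0.25 without combination library 2. None passed or had an unadjusted p under 0.05, where 0% and 8.2% of all genes did.

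Set against Cd68 in the same library, most of the genes separated the anti-PDL1 tumours from the control and exercise tumours. This ratio was chosen after the values were seen and is given as a description with no test. Of these genes, Cd68 also had the smallest fold change in anti-PDL1 against control, and it spanned 30.85 to 118.45 FPKM in control libraries. Dividing by Cd68 can cancel spread in genes that follow it and add spread to genes that do not. In deviations from group means, the other 9 genes followed Cd68 with r from 0.47 (Ccr2) to 0.83 (Itgam). The percentages of all genes given with such ratios are therefore no matched baseline, and the size of this effect was not tested. The ratio of C1qa to Cd68 was 1.35, 0.762, 1.09 and 0.895 in anti-PDL1 tumours, against 2.72, 2.85, 2.11 and 1.73 in control tumours. Every anti-PDL1 value lay below every control value, controls 3 and 4 included. The ratio of Csf1r to Cd68 was 0.154, 0.144, 0.181 and 0.125 in anti-PDL1 tumours, against 0.449, 0.449, 0.383 and 0.314 in control tumours, again without overlap. In all, 7 of 9 genes (Adgre1, Csf1r, Lyz2, Ccr2, C1qa, C1qb and C1qc) had a lower ratio without overlap, where 1.47% of all genes tested did. Without controls 1 and 2 it was 8 of 9 and 4.3%. Itgam was the 1 gene whose groups overlapped in both. Without anti-PDL1 library 4, the library rich in red cell transcripts, it was 7 of 9 and 1.48%.

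In exercise tumours the ratio of C1qa to Cd68 was 2.96, 2.51, 1.74 and 2.00 and that of Csf1r to Cd68 was 0.593, 0.465, 0.333 and 0.304. Against exercise, 6 of 9 genes had a lower ratio with anti-PDL1 without overlap, the same as against control save Lyz2, where 4.69% of all genes did. In combination tumours the ratio of C1qa to Cd68 was 1.48, 0.934, 2.36 and 3.05, so libraries 1 and 2 lay within or just above the anti-PDL1 range and libraries 3 and 4 within or above that of control. The count depended on the gene used as the base. With Fcer1g, the common chain of Fc receptors, it was 6 of 10 genes against control (0.472% of all genes) and 6 of 10 against exercise (0.927%). With Ptprc, the leukocyte antigen CD45, it was 3 of 10 against control (0.699%) and 7 of 10 against exercise (8.33%), and with Itgam 2 of 9 against each (0.455% and 1.29%).

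**Figure D3:**
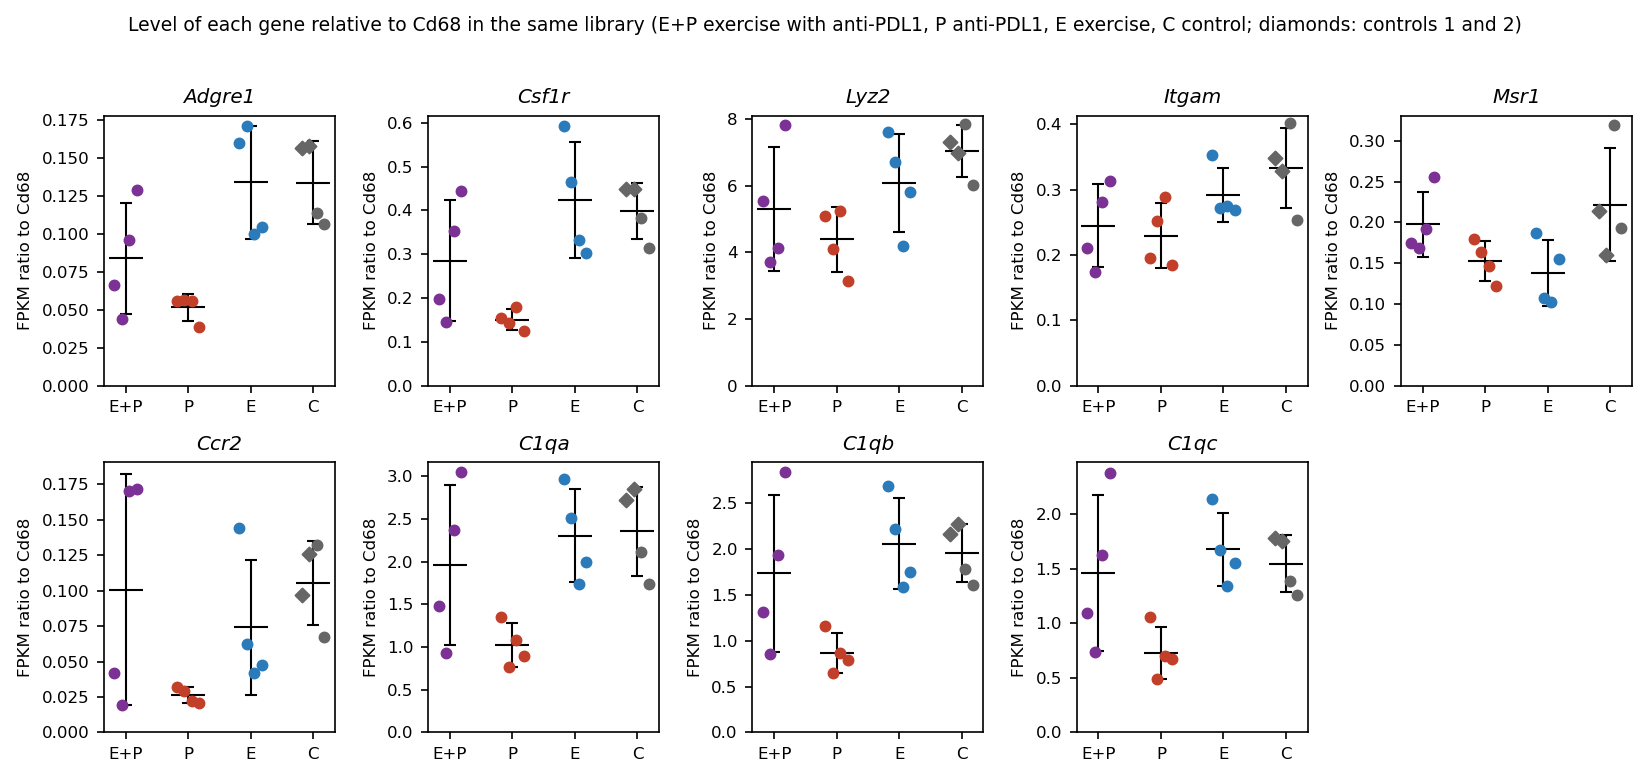
FPKM of each gene divided by that of Cd68 in the same library (y axis) by group, with 1 point per library and bars for the mean ± SD of 4 libraries; diamonds are controls 1 and 2. For C1qa the anti-PDL1 libraries lie between 0.762 and 1.35 and the control libraries between 1.73 and 2.85.

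Across the 16 libraries the C1q genes moved almost as one. On log2(FPKM + 1), Pearson's r was between 0.99 and 0.996 for their 3 pairs, and the same without controls 1 and 2. Csf1r followed Adgre1 at 0.98 and C1qa at 0.97. Over all 45 pairs of the 10 genes r had a median of 0.84 and a minimum of 0.36, between Cd68 and Ccr2. The 9 pairs with Cd68 had a median of 0.64, and of 0.40 without controls 1 and 2. These values describe 16 libraries that share the group differences and the content of macrophages, and no test is attached to them.

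**Figure D4:**
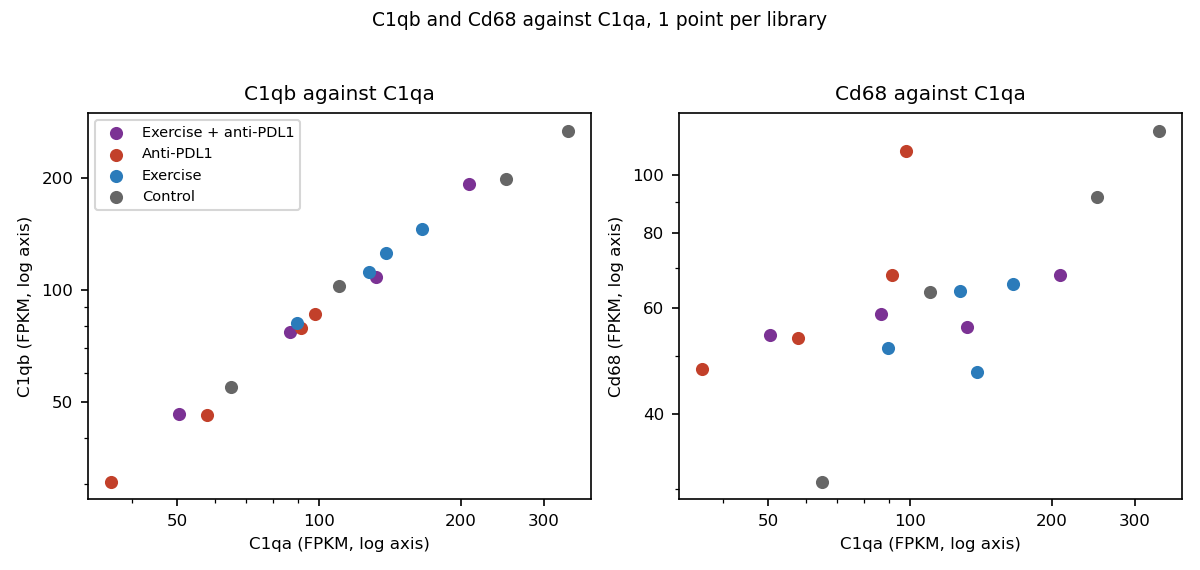
C1qb (left) and Cd68 (right) against C1qa in FPKM, both axes logarithmic, with 1 point per library coloured by group. C1qb follows C1qa along a line, with r of 0.996 over 16 libraries, while Cd68 scatters widely, with r of 0.64.

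Among the 11858 other genes tested, those most like the mean of the C1q genes over the 16 libraries were Pld4 (r = 0.97), Tifab, Il10ra, Coro1a, Lrrc25, Laptm5, P2ry6 and Tnfaip8l2 (r = 0.95). Pld4 encodes an exonuclease of endolysosomes, Il10ra a chain of the receptor for interleukin 10, and Coro1a an actin-binding protein of leukocytes. Those most like the mean of the other 7 genes were Spi1 (r = 0.98), Rassf4, Arhgap30, Lrrc25, Vav1, Ncf1, Cyth4 and Mrc1 (r = 0.96). Spi1 encodes the transcription factor PU.1, Ncf1 a subunit of the phagocyte oxidase, and Mrc1 the mannose receptor. Without controls 1 and 2, r lay between 0.92 and 0.96 for these genes.

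Of 26 further genes of macrophage identity and function, 24 could be tested. In anti-PDL1 against control 20 had a lower and 4 a higher fitted level and none passed, with a median of -0.61. Cx3cr1, the fractalkine receptor, fell with the antibody averaged over both kinds of tumour, by 1.19 ± 0.29 on the log2 scale (SE; adjusted p = 0.0491 in limma), and was the 1 gene of the list to pass in any comparison. Cx3cr1 measured 2.86, 1.77, 4.84 and 12.5 FPKM in combination tumours and 2.42, 1.29, 1.24 and 1.66 FPKM in anti-PDL1 tumours. It measured 8.64, 12.2, 5.23 and 6.24 FPKM in exercise tumours, and 12.8, 7.27, 3.94 and 7.68 FPKM in control tumours. All 4 anti-PDL1 libraries lay below every library without antibody, while combination library 4 was among the highest. Of all genes tested, 7.26% were lower without overlap in anti-PDL1 against control and 8.07% against exercise. The call was lost on leaving out any 1 library other than control 3 or combination library 4, with adjusted p-values of 0.0543 to 0.102, and without controls 1 and 2 (adjusted p = 0.226). In anti-PDL1 against control the largest fold changes of the list were those of Lyve1, Cx3cr1 and Mrc1, at -2.27 ± 0.83, -1.68 ± 0.42 and -1.64 ± 0.52 (SE; adjusted p = 0.132, 0.0729 and 0.107 in limma). Lyve1 was high in controls 1 and 2 alone. Gpnmb, a lysosomal glycoprotein, which was picked after its values were seen, had the opposite sign at 1.01 ± 0.36 (SE; adjusted p = 0.132 in limma).

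Of the 6 ligands of Csf1r and Ccr2, Ccl7, a chemokine that binds Ccr2, was higher in anti-PDL1 than in exercise tumours. Ccl7 measured 62.1, 47.1, 40.6 and 58.6 FPKM in anti-PDL1 tumours, against 12.7, 15.8, 28.9 and 26.6 FPKM in exercise tumours. The log2 fold change was 1.33 ± 0.31 (SE; adjusted p = 0.0462 in limma). Ccl7 was also higher with the antibody averaged, by 0.89 ± 0.22 (SE; adjusted p = 0.0484 in limma), and both calls were near the threshold. Leaving out 1 library ended the first for 11 of 16 libraries (adjusted p = 0.0517 to 0.142) and the second for 13 of 16 (adjusted p = 0.0503 to 0.1005). The first held without control 2, exercise 3, combination 3 or 4 or anti-PDL1 3, and the second without exercise 3, combination 3 or anti-PDL1 3. In control tumours Ccl7 measured 26.5, 54.0, 26.0 and 31.7 FPKM, which overlapped both the anti-PDL1 and the exercise values. Ccl2, the main ligand of Ccr2, stood at 1.04 ± 0.42 and Ccl12 at -1.29 ± 0.41 in anti-PDL1 against control (SE; adjusted p = 0.163 and 0.107 in limma). The ligands of Csf1r, Csf1 and Il34, had no adjusted p under 0.05 in any comparison.

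Of 8 monocyte genes, 7 could be tested. F10, which encodes coagulation factor X, was higher in anti-PDL1 than in exercise tumours. It measured 5.45, 7.84, 6.47 and 9.96 FPKM in anti-PDL1 tumours, against 1.70, 2.85, 3.06 and 3.43 FPKM in exercise tumours. The log2 fold change was 1.16 ± 0.21 (SE; adjusted p = 0.0196 in limma), and the call was lost without exercise 2 (adjusted p = 0.0622) and without anti-PDL1 2 or 4 (adjusted p = 0.0691 and 0.0715). It was also higher with the antibody averaged, by 0.70 ± 0.15 (SE; adjusted p = 0.0318 in limma). That call was lost without control 1, exercise 1 or 2, combination 1 or anti-PDL1 2 or 4, at adjusted p-values of 0.0503 to 0.0666. Ly6c2, which marks inflammatory monocytes, did not exceed 3.75 FPKM in any library, while Ly6c1 ranged from 60.8 to 471 FPKM. In anti-PDL1 against control Ly6c1 had the largest fold change of the list, at 1.81 ± 0.46. Chil3 had the opposite sign, at -0.43 ± 0.70 (SE; adjusted p = 0.0754 for Ly6c1 and 0.744 for Chil3 in limma).

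Downstream of C1q, the classical pathway runs through the proteases C1r and C1s to C4, C2 and C3, and Serping1 encodes its inhibitor. Of 8 genes of this pathway 5 could be tested, and none passed in any comparison. In anti-PDL1 against exercise 5 of 5 had a higher fitted level, with a median of 1.11, where the C1q genes were lower. In anti-PDL1 against control 3 were higher and 2 lower, with a median of 0.46. In exercise against control 5 of 5 were lower, with a median of -0.65, as the C1q genes were. All 5 measured higher in controls 1 and 2 than in controls 3 and 4, as C4b did at 13.4 and 30.8 against 1.85 and 2.43 FPKM. C4b measured 2.20, 3.14, 12.0 and 4.49 FPKM in exercise tumours. Without controls 1 and 2 the C1q genes changed sign in exercise against control, and values without them are not given for these 5. In anti-PDL1 against exercise C1s1 stood at 1.52 ± 0.51 and C4b at 1.22 ± 0.70 (SE; adjusted p = 0.111 and 0.310 in limma). C1s1 measured 21.6, 24.6, 14.2 and 9.65 FPKM in anti-PDL1 tumours, against 2.87, 4.15, 9.37 and 5.77 FPKM in exercise tumours. Serping1 measured 107 and 98.8 FPKM in controls 1 and 2 and at most 19.8 FPKM in the other libraries. Of the proteins known to bind C1q, none of 4 passed, and Calr, calreticulin, ranged from 471 to 647 FPKM over all libraries. Itgb2, the partner chain of Itgam, stood at -0.24 ± 0.23 in anti-PDL1 against control (SE; adjusted p = 0.562 in limma), and none of the 4 partner genes passed in any comparison.

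**Figure D5:**
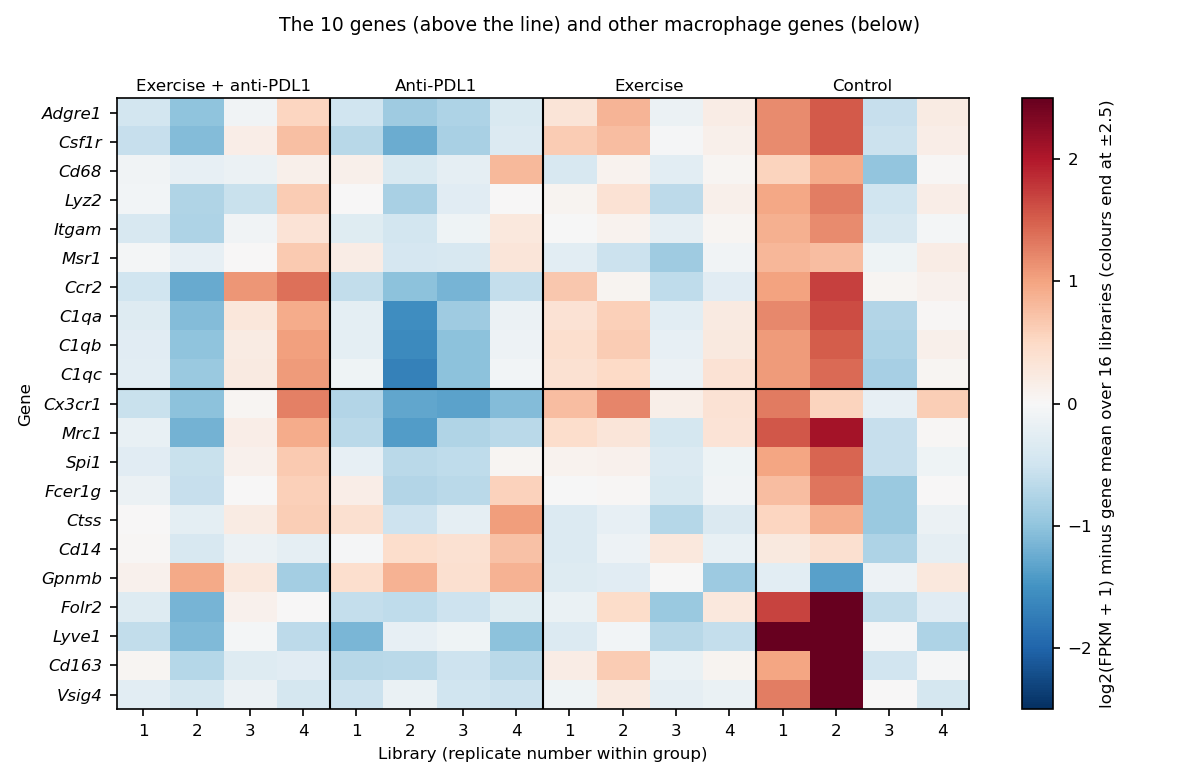
Log2(FPKM + 1) of the 10 genes (above the line) and 11 other macrophage genes picked after their values were seen (below), each minus its mean over 16 libraries, with 1 column per library and colours that end at ±2.5. Controls 1 and 2 and combination library 4 are high for most of the 10 genes, anti-PDL1 library 2 is low for most, and Lyve1, Folr2, Cd163 and Vsig4 are high in controls 1 and 2.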

How the data were processed

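RNA of 16 MC38 tumour libraries was analysed from the values the authors deposited, which are FPKM with 2 decimals for 18480 entries per library. RNA was extracted with Trizol, per the labels' protocols, and the tools HISAT and Bowtie2 with the build GRCm38.p6 stand, without version or role, in the submitters' processing notes. The FPKM program, library kit and strandedness were not given in the sources used here. FPKM sums lay between 478672 and 529732 per library. No read counts were used, so the depth is unknown and values carry no counting interval. The series title speaks of PD-1 and the labels of anti-PDL1, whose name is used.

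FPKM were taken as log2(FPKM + 1), which understates the change of low genes. A gene was tested if it reached 1 FPKM in 4 or more libraries, which left 11868. They entered 1 limma model (limma 3.58.1, R 4.3.3; moderated variances, with a trend, robust) of 16 libraries with group as its term. The design had allowed for counts or FPKM, and its form for FPKM was used. The 9 comparisons were adjusted by Benjamini-Hochberg over all genes tested, each at a threshold of 0.05, and the model was tested on simulated data. Comparisons share libraries and are not independent. The 10 genes and the gene lists were chosen with earlier results of these data known. From the other lists, genes were named that passed in any comparison, or otherwise the 3 with the largest fold change in anti-PDL1 against control and in combination against anti-PDL1; other names were picked after their values were seen. Sequences and coordinates are from RefSeq on GRCm38.p6. Figures were drawn with matplotlib 3.10.9. Alternatives were limma with neither trend nor robust variances, quantile normalization, median centring, no filter, a mean of at least 5 FPKM, a pseudocount of 0.1, a fit of the compared groups alone, a block for the replicate number, weights per library, and leaving out each library or controls 1 and 2. Other bases for the ratio to Cd68 were added after seeing the data.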

Additional observations from a re-analysis of the deposited data

Results flagged for a closer look

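Msr1 lay in opposite directions under the antibody with and without exercise. Each of the 4 combination libraries lay above the mean of the exercise libraries, and each of the 4 anti-PDL1 libraries lay below the mean of the control libraries. The difference between these 2 effects was 1.06 on the log2 scale, and by the interaction term it did not pass (adjusted p = 0.364 in limma). The control mean rests on controls 1 and 2. Without them the difference was 0.68, anti-PDL1 against control stood at -0.13 in place of -0.51, and anti-PDL1 library 4 lay above both remaining controls. In 40 sets of 4 libraries, the 10 genes in each group, no single library lay apart from the others by Dixon's criterion. The criterion looks for 1 library at a time, so it cannot flag 2 that are high together, such as controls 1 and 2.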

How the results depend on the processing

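None of the 10 genes passed the adjusted threshold in the reported comparisons, and that count changed under few alternatives. With library weights it was 2 in anti-PDL1 against control (835 genes in all, against 30) and 1 in exercise against control (2274 in all, against 0). With only the groups compared it was 2 in anti-PDL1 against exercise. Leaving out 1 library, it ranged from 0 to 1 for the antibody averaged, the 1 being without control 3. Over all alternatives the genes called ran from 4 (without controls 1 and 2) to 835 in anti-PDL1 against control, from 9 (without exercise 2) to 823 in anti-PDL1 against exercise (188 reported), and from 28 (without controls 1 and 2) to 639 for the antibody averaged (286 reported). The upper ends are with library weights. Without exercise 1, 611 genes were called in exercise against control, 184 in combination against exercise and 223 in the interaction, where 0 are reported, and library weights called 222 in combination against exercise. Median centring called 172 genes higher and 103 lower for the antibody averaged, against 147 and 139.

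Controls 1 and 2 moved most. Without both, the median log2 fold change of the 10 genes was 0.078 for combination against control, -0.35 for anti-PDL1 against control, 0.42 for exercise against control and 0.058 for the interaction. Signs turned for Cd68 (0.40), Msr1 (0.059), Ccr2 (0.10), C1qa (0.30), C1qb (0.31) and C1qc (0.42) in combination against control. They turned for Cd68 (0.56) and Itgam (0.070) in anti-PDL1 against control. In exercise against control they turned for Adgre1 (0.50), Csf1r (0.56), Cd68 (0.34), Lyz2 (0.14), Itgam (0.20), C1qa (0.58), C1qb (0.59) and C1qc (0.66). In the interaction they turned for Adgre1 (-0.12), Cd68 (-0.50), Lyz2 (-0.057) and Itgam (-0.27). The cause was not tested.

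Leaving out 1 library turned signs of small fold changes. In exercise against control the ranges were -0.67 to 0.040 for Adgre1, -0.59 to 0.10 for Csf1r, -0.72 to 0.065 for C1qa, -0.63 to 0.13 for C1qb and -0.58 to 0.17 for C1qc. For Cd68 they were -0.58 to 0.058 in combination against control, -0.42 to 0.22 in anti-PDL1 against control, -0.31 to 0.081 in combination against anti-PDL1, -0.020 to 0.38 in anti-PDL1 against exercise and -0.16 to 0.48 in the interaction. In combination against anti-PDL1 they were -0.26 to 0.10 for Itgam and -0.20 to 0.27 for Lyz2. Library weights gave Itgam 0.041 there.

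The number of genes with a lower ratio without overlap was 2 with Itgam and 3 with Ptprc as base against control, and 2 with Itgam against exercise.

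Libraries of the same replicate number share only that number. Of 24 same-numbered pairs of libraries, deviations from the group means correlated over 0.1 in 6, between -0.62 and 0.34. With the number as a block, none of the 10 genes passed in any comparison, and their median was -1.18 in anti-PDL1 against control and -0.87 against exercise. The block ended the calls of Ccl7 in anti-PDL1 against exercise (adjusted p = 0.0754) and, with the antibody averaged, of Cx3cr1, Ccl7 and F10 (adjusted p = 0.0737, 0.0696 and 0.0549).

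With 4 libraries a group and standard errors of 0.25 to 0.53 (log2) for the 10 genes in pairwise comparisons, small differences could not be called, and a missed threshold does not show that levels were alike.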
